A study of Mus musculus with 14 samples.

Results

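Foxp3+ T cells were examined in white nodules of 5 mice whose V(D)J libraries covered the B cell receptor (BCR), termed B cell nodules. A cell was taken as a Foxp3+ T cell when at most 10% of its UMIs were mitochondrial, it held at least 1 UMI of Foxp3 and at least 1 UMI of Cd3d, Cd3e or Cd3g, and it held no UMI of Cd8a, Cd8b1, Cd79a, Cd79b or Ms4a1. The cells were thus chosen by measured values, the UMIs of these genes. A UMI (unique molecular identifier) counts 1 captured RNA molecule. The rule found 108 cells among 51694 that passed the mitochondrial limit, which is 0.209% of cells (95% Clopper-Pearson interval, 0.171 to 0.252). The lung nodule of mouse 29 (12 mo old) held 33 of them, the spleen nodule of mouse 31 (13 mo) 36, the thymus nodule of mouse 33 (16 mo) 13, and the lung&thymus nodule of mouse 34 (9 mo) 26. The liver nodule of mouse 27 (labelled 12 mo) held 0. All mice carried Eif3e fl/fl alleles with Cγ1Cre, a Cre recombinase made from the Ighg1 locus and active in B cells that have begun to switch class, on a C57BL/6J background. Some also carried a Rosa26-YFP reporter behind a stop cassette. The nodule of mouse 27 is described in the study as a secondary tumor grown in a Rag2-/- recipient, a host that makes no B or T cells of its own. The same rule was applied to 2 nodules with a T cell receptor (TCR) library, termed T cell nodules, and found 34 cells in mouse 30 (liver, 14 mo) and 89 in mouse 32 (spleen, 12 mo). Each mouse gave 1 nodule, and no healthy or Cre-negative tissue was compared, so site, age and mouse cannot be told apart.

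Regulatory T cells are CD4+ T cells that hold back the responses of other lymphocytes, and the transcription factor Foxp3 fixes their identity. They take up IL-2 through CD25 (Il2ra), strip CD80 and CD86 from antigen-presenting cells through CTLA-4 (Ctla4), and often carry the transcription factor Helios (Ikzf2). In tissues they can acquire an effector state with receptors of the TNF receptor family, the integrin CD103, the chemokine receptor CCR8 and the repair factor amphiregulin. In follicles some restrain the help that T cells give to B cells.

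Foxp3 was captured sparsely. Of the 108 Foxp3+ T cells, 86 held a single Foxp3 UMI and 22 held 2 or 3, and 35 held a single Cd3 UMI. In the B cell nodules 232 cells held a Foxp3 UMI at all, of which 89 had no Cd3 UMI, 6 had Cd3 and Cd8 UMIs and 29 had Cd3 and B cell UMIs (17 of them exactly 1). The cells just inside and just outside the rule are given here as a description. Ikzf2 was detected in 76.7% of the cells with 1 Foxp3 UMI and in 77.3% of those with more. It was detected in 51.5% of 66 cells with Foxp3 but no Cd3, Cd8 or B cell UMI, whose median was 1178 UMIs against 2058 in the Foxp3+ T cells, and in 82.8% of the 29 cells left out for B cell UMIs. Other genes differed more between cells with 1 Foxp3 UMI and those with more. Il2ra was detected in 10.5% against 36.4%, Tnfrsf9 in 47.7% against 72.7% and Ctla4 in 47.7% against 59.1%. Tnfrsf4 (52.3% against 54.5%) and Tnfrsf18 (55.8% against 59.1%) were close, and each was detected in 16.7% of the 66 cells.

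The share of Foxp3+ T cells differed widely between nodules. Among T cells, here cells with a Cd3 UMI and no Cd8 or B cell UMI, they made up 1.49% (33 of 2211), 6.53% (36 of 551), 0.734% (13 of 1771) and 6.22% (26 of 418) in mice 29, 31, 33 and 34. The mean of these 4 mice was 3.75% ± 3.06 (SD, n = 4). The intervals of mice 31 and 34 (4.62 to 8.93 and 4.10 to 8.98) overlapped each other and lay above those of mice 29 and 33 (1.03 to 2.09 and 0.391 to 1.25). In mouse 27, 0 of 324 T cells met the rule, which allows a share of up to 0.926%. The T cell nodules of mice 30 and 32 had 0.498% and 1.27%. Among T cells with a Cd4 UMI the shares were 1.36%, 9.30%, 1.27% and 7.64% in mice 29, 31, 33 and 34. As a background for free RNA, B cells held a Foxp3 UMI in 0.0303% to 0.141% of cells over the 5 nodules, at median depths of 6742 to 9885 UMIs, above the 1404 to 3837 of the Foxp3+ T cells. When every cell was thinned to 1000 UMIs and the rule applied again, the shares of T cells became 1.01%, 4.66%, 0.214% and 1.09%. Mouse 31 stayed above the rest, and the interval of mouse 34 (0.356 to 2.53) then overlapped that of mouse 29 (0.536 to 1.71). The shares follow from the rule and were not tested.

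**Figure D1:**
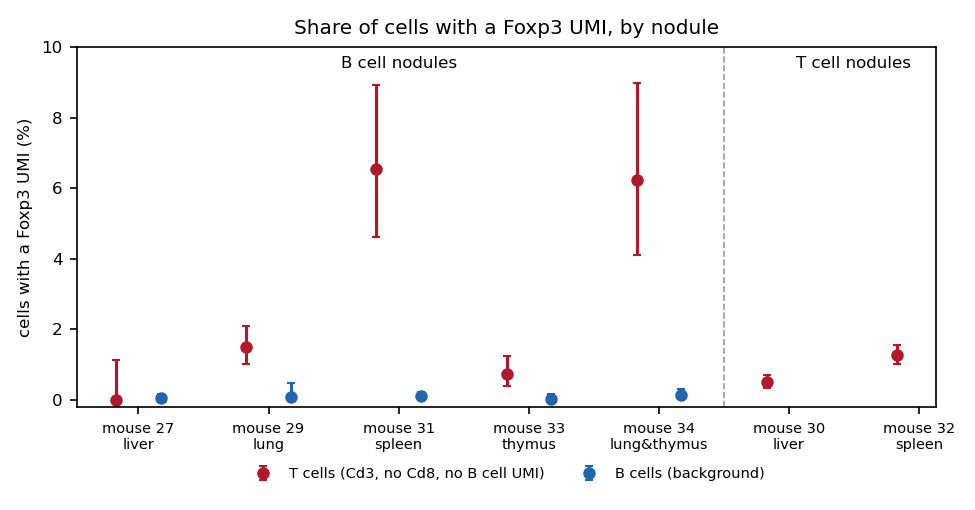
Percent of cells with a Foxp3 UMI (y axis) in each nodule (x axis) for T cells with no Cd8 or B cell UMI (red) and for B cells (blue, shown where at least 100 B cells were found), with 95% Clopper-Pearson intervals as bars. Mice 31 and 34 reached 6.53% and 6.22%, mouse 27 had 0, and B cells stayed between 0.0303% and 0.141%.

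The given markers fitted the name regulatory T cell in part. Helios (Ikzf2) was detected in 83 of the 108 Foxp3+ T cells, Ctla4 in 54 and Il2ra in 17, and 18 cells had none of these 3. They were compared within each nodule with Foxp3-zero CD4 T cells, which meet the same rule but hold no Foxp3 UMI and at least 1 Cd4 UMI. Since most Foxp3+ cells held a single Foxp3 UMI, Foxp3-zero cells that lack Foxp3 and those in which it was not captured cannot be told apart. Of the Foxp3+ cells, 37 of 108 held a Cd4 UMI. At least 1 of Ikzf2, Ctla4 and Il2ra was detected in 81.8%, 75.0%, 100% and 88.5% of them in mice 29, 31, 33 and 34. The Foxp3-zero CD4 T cells were close, at 79.6%, 68.4%, 80.9% and 76.7%. At least 2 were detected in 42.4%, 30.6%, 84.6% and 65.4% against 36.7%, 23.9%, 22.8% and 24.1%. Over the 5 nodules Ctla4 was detected in 50.0% of the Foxp3+ cells and in 57.9% of the Foxp3-zero CD4 T cells. Levels below are CPM, the UMIs of a gene per 1000000 UMIs summed over a population in 1 mouse.

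Ikzf2 stood at 1349, 1550.2, 1262 and 1025 CPM in the Foxp3+ T cells of mice 29, 31, 33 and 34. In the Foxp3-zero CD4 T cells it stood at 936, 909, 110.1 and 359 CPM. Every Foxp3+ value lay above every Foxp3-zero value. The share of cells with an Ikzf2 UMI was 75.0% to 80.8% against 21.1% to 70.4%, and 58.8% to 69.2% against 10.9% to 57.0% after thinning to 1000 UMIs, which 99 of the 108 cells reached. Ctla4 stood at 327, 281, 1491 and 611 CPM in the Foxp3+ T cells and at 311, 599, 515 and 519 CPM in the comparators. It was higher in 3 of 4 mice, lower in mouse 31, and the groups overlapped. Il2ra stood at 99.4, 14.8 (1 UMI), 731 and 288 CPM against 23.4, 23.5, 53.0 and 46.7 CPM. The Foxp3+ cells were higher in mice 29, 33 and 34 and not in mouse 31. There their value lay under a floor of 3 UMIs (44.3 CPM), and that of the Foxp3-zero CD4 T cells lay above theirs (11.7 CPM).

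**Figure D2:**
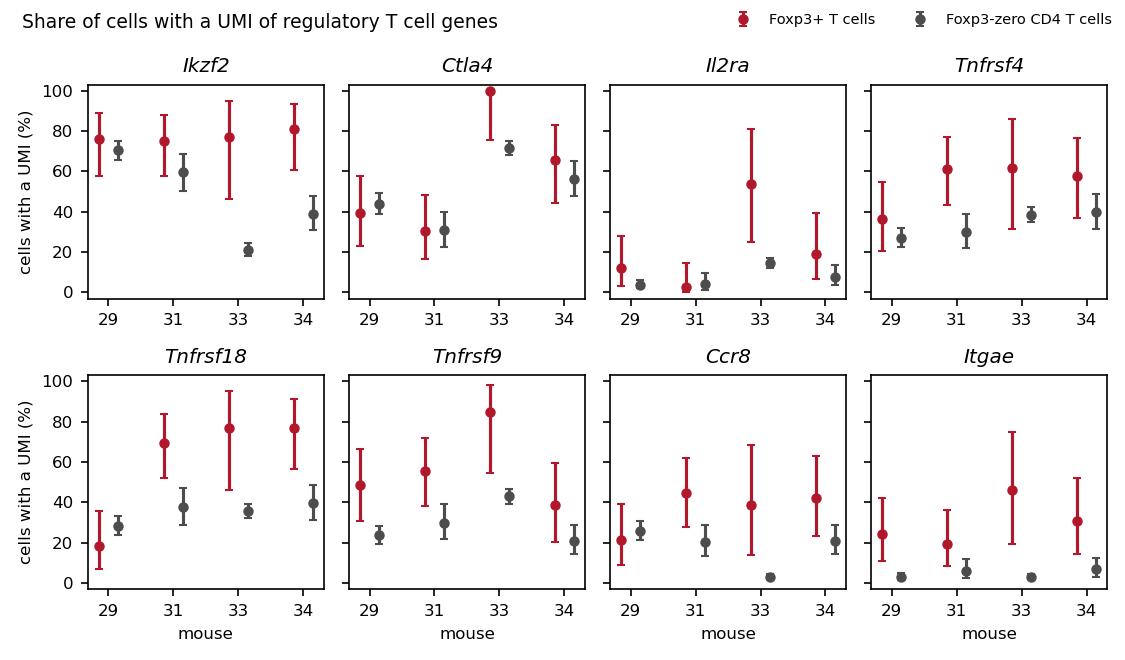
Percent of cells with a UMI (y axis) of 8 regulatory T cell genes in each mouse (x axis) for Foxp3+ T cells (red) and Foxp3-zero CD4 T cells (grey), with 95% Clopper-Pearson intervals as bars. Ikzf2 was detected in 75.0% to 80.8% of Foxp3+ cells in all 4 mice, whereas Ctla4 ranged from 30.6% in mouse 31 to 100% in mouse 33.

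Eif3e, the floxed gene, was detected in the Foxp3-zero CD4 T cells of all 5 B cell nodules and in the Foxp3+ T cells of the 4 that held any. Its level in the Foxp3+ T cells was 85.2, 59.1, 229 and 196 CPM in mice 29, 31, 33 and 34 (6, 4, 16 and 17 UMIs). The Foxp3-zero CD4 T cells had 121, 117, 161 and 172 CPM, and those of mouse 27 had 173 CPM. The populations overlapped, and the difference in the test described next was a log2 fold change of -0.34 ± 0.35 (SE) with adjusted p = 0.818 (edgeR). Which part of Eif3e the UMIs covered was not known, so these levels say nothing of the deletion.

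The T cell list has 7 genes, with Cd3d, Cd3e and Cd3g of the rule among them. It summed to 1391, 2628, 2251 and 3065 CPM in Foxp3+ T cells of mice 29, 31, 33 and 34. The comparators had more in each mouse, at 1649, 3427, 3037 and 3071 CPM. Of 4 genes tested as described below, 0 passed. The log2 fold changes were -1.17 ± 0.43 for Lat, -0.77 ± 0.29 for Trbc2, -0.36 for Trac and 0.35 for Cd2. Over the 5 nodules Trbc2 was detected in 37.0% against 52.7% of cells. Genes of other cell types were at or near 0 for some lists and not for others. Of 8 B cell genes, 5 were at 0 and the others summed to 8 UMIs (14.2 to 34.6 CPM per mouse, against 35.8 to 78.3 in the comparators), with 3 of the 5 at 0 fixed by the rule. All 4 measured genes of the gamma-delta T cell list and all 4 of the mast cell list were at 0. Macrophage genes summed to 18 UMIs (42.6 to 86.0 CPM, against 24.3 to 526). Neutrophil genes summed to 142 UMIs, all in mouse 29, where they reached 2016 CPM against 1620 CPM in the comparators. NK cell genes stood at 0 to 129 CPM, with Ncr1, Klrb1c, Klre1 and Klra8 at 0, against 46.9 to 474 CPM in the comparators. Genes of group 2 innate lymphoid cells, of which Gata3 and Il1rl1 are also listed for tissue regulatory T cells, were higher in the Foxp3+ T cells of each mouse, at 219 to 539 CPM against 55.8 to 278. Of the epithelial list's 38 UMIs, 36 were Epcam, which stood at 99.4, 221, 143 and 46.1 CPM in mice 29, 31, 33 and 34 against 81.0, 141, 15.8 and 6.09 CPM in the comparators, higher in 4 of 4. Fibroblast genes summed to 35 UMIs, 33 of them in mouse 29 (468 CPM against 313), and plasma cell genes to 19 UMIs (28.7 to 103.3 CPM against 33.3 to 54.8). Dendritic cell genes summed to 16 UMIs (28.4 to 71.7 CPM against 23.4 to 32.7), endothelial genes to 15 and erythroid genes to 3. The part of these transcripts in the results below was not tested. Median mitochondrial shares of 0.611% to 1.59% lay beside 0.646% to 1.45% in the comparators. Of the 108 cells, 19 had a barcode that also occurred in another library, none of them that of another Foxp3+ T cell.

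To ask which other genes set the Foxp3+ T cells apart within a nodule, UMIs were summed per mouse and population and tested with edgeR's quasi-likelihood test with mouse as a block. Mice 29, 31 and 34, which had at least 20 cells in both populations, entered the test. Mouse 33 did not, and serves as a look at a mouse the test did not use. The genes of the rule and Cd4 were not tested. Of 3216 genes tested, 26 (0.808%) passed a Benjamini-Hochberg adjusted p of 0.05, 8 higher (0.249%) and 18 lower (0.56%) in Foxp3+ T cells. The 2 populations did not overlap in CPM for 17 of the 26, against 8.74% of all genes tested. In mouse 33, 22 of the 26 differed in the same direction, against 57.9% of all genes tested. The numbers were 24 of 26 (52.7% of all) in mouse 30 and 18 of 26 (54.0%) in mouse 32. In all 3 of these mice both populations of a mouse share its library. In mice 30 and 32, 86.1% and 94.0% of the Foxp3-zero T cells with a TCR call carried the expanded T cell clone. The comparators there were thus mostly clone cells, unlike those of the B cell nodules.

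The integrin subunit CD103 (Itgae, ENSMUSG00000005947), which pairs with β7 and binds E-cadherin, had the greatest rise. It stood at 128, 133 and 207 CPM in the Foxp3+ T cells of mice 29, 31 and 34 and at 16.0, 39.2 and 28.4 CPM in the Foxp3-zero CD4 T cells. The populations did not overlap. The log2 fold change was 2.52 ± 0.40 (SE, n = 3 mice), with adjusted p = 0.00975 (edgeR). In mouse 33, outside the test, it stood at 244 against 8.32 CPM, and in mice 30 and 32 at 129 against 7.84 and 67.1 against 7.18 CPM. CD103 transcripts were therefore higher in the Foxp3+ cells of all 6 nodules that held any, though the comparators of mice 30 and 32 were mostly cells of the expanded clone.

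Nebulin (Neb, ENSMUSG00000026950), a giant actin-binding protein of muscle thin filaments, stood at 539, 162 and 219 CPM against 98.0, 66.6 and 50.7 CPM (log2 fold change 2.03 ± 0.32, adjusted p = 0.00913, edgeR). It did not overlap, and the 688 against 50.2 CPM of mouse 33 went the same way. Bmyc (ENSMUSG00000049086), a short relative of Myc, stood at 284, 974 and 1106 CPM against 120.4, 266 and 237 CPM (1.77 ± 0.24, adjusted p = 0.00464, edgeR). The populations did not overlap within the 3 mice, and mouse 33, at 57.4 against 16.9 CPM, was low in both. Nrip1, a corepressor of nuclear receptors, stood at 1149.9, 1639 and 714 CPM against 468, 693 and 371 CPM (1.11 ± 0.18, adjusted p = 0.00975, edgeR), again without overlap. Ttc39c had a log2 fold change of 1.17 ± 0.23 and Lamc1, a laminin chain, of 1.72 ± 0.35. The remaining 2 were signaling genes with small changes. Nfkbia, the NF-κB inhibitor that NF-κB itself induces, had 0.65 ± 0.12, and the AP-1 subunit gene Fos 0.45 ± 0.07. Lamc1, Nfkbia and Fos overlapped between the populations across mice while being higher in each. In mice 30 and 32 most of the higher genes kept their direction. Bmyc went the other way in mouse 32 (12.0 against 22.2 CPM), as did Fos (1598 against 1616 CPM). Ttc39c did so in mouse 30 (258 against 341 CPM).

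Among the 18 lower genes were chemokine, granule and cytokine genes. Ccl5 (ENSMUSG00000035042), a chemokine that attracts T cells and monocytes, stood at 28.4, 236 and 369 CPM in mice 29, 31 and 34, against 732, 8521 and 3949 CPM in the Foxp3-zero CD4 T cells. Its log2 fold change was -4.32 ± 0.26 with adjusted p = 1.6e-06 (edgeR), the smallest of the table. In mouse 33 it was 430.1 against 14061 CPM. Granzyme K (Gzmk, ENSMUSG00000042385) had 0 UMIs in the Foxp3+ cells of all 3 mice and 69.2, 591 and 473 CPM in the comparators. It was 19.96-fold lower when set at a floor of 3 UMIs over the group, and the exact interval of the ratio began at 16.2. Mouse 33 differed, with 301 against 805 CPM. Interferon-γ (Ifng) had 3 UMIs in the Foxp3+ cells and stood at 181, 274 and 193 CPM in the comparators, a ratio of 14.9 (exact interval 5.05 to 72.6). The granule gene Nkg7 was at 0, 0 and 92.2 CPM against 50.1, 768 and 497 CPM, and Ccl4, another inflammatory chemokine, at 170.4, 0 and 115 CPM against 205, 2890.0 and 1227 CPM. Cxcr6, the receptor of CXCL16, had 3 UMIs in the Foxp3+ cells and 202 in the comparators (ratio 8.98, 3.03 to 43.9). Mouse 33 went the other way for Cxcr6, at 229 against 128 CPM. Ms4a4b had a log2 fold change of -3.23 ± 0.55 and Themis, which tunes T cell receptor signals during thymocyte selection, of -2.08 ± 0.34. The NK cell list was also higher in the comparators (above), and its part in these genes was not tested.

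**Figure D3:**
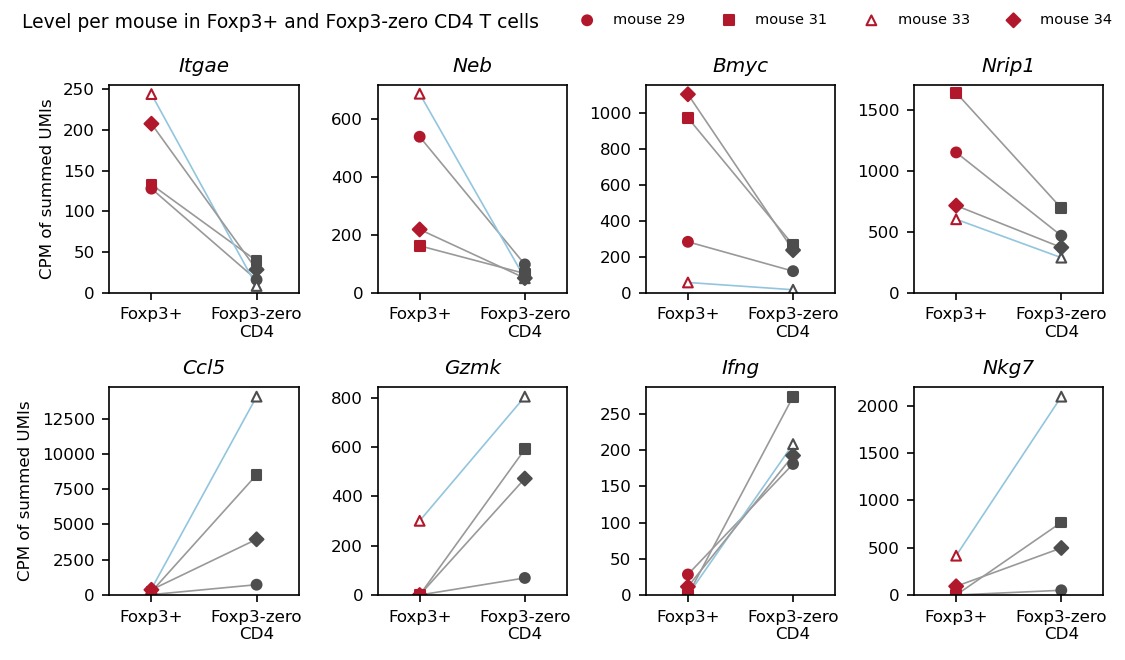
CPM of summed UMIs (y axis, from 0) of 4 genes higher and 4 genes lower in Foxp3+ T cells (red) than in Foxp3-zero CD4 T cells (grey), with lines joining the 2 populations of a mouse. Open triangles with a blue line are mouse 33, which was not in the test, and all 8 genes went the same way there.

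Among the other lower genes, the histone genes Hist1h1b, Hist1h2ae and Hist1h2ap, transcribed in S phase, had log2 fold changes of -3.48 ± 0.50, -2.51 ± 0.38 and -2.25 ± 0.37. Those of the chromatin protein genes Hmgn2 and Hmgb2 were -2.16 ± 0.45 and -1.27 ± 0.23. Mouse 33 went the other way for the 3 histone genes, with all 88 of its Hist1h1b UMIs in 1 cell. Mki67 or Top2a, which mark cycling cells, was detected in 6.06%, 11.1%, 30.8% and 26.9% of the Foxp3+ T cells of mice 29, 31, 33 and 34, against 11.6%, 8.55%, 30.8% and 21.1% of the comparators, without a steady direction. Summed, the 10 genes of the proliferation list stood at 85.2, 118, 1133 and 265 CPM in these mice against 330, 294, 794 and 704 CPM. The Foxp3+ cells were thus lower in mice 29, 31 and 34 and higher in mouse 33. A UMI of any of the 10 was found in 18.2%, 22.2%, 30.8% and 38.5% of cells against 16.6%, 13.7%, 41.4% and 30.1%. Of that list, 2 genes were tested, and edgeR and DESeq2 called 0 (1 at unadjusted p under 0.05 in edgeR). Mki67 had a log2 fold change of -1.38 ± 0.44 (adjusted p = 0.212, edgeR). The ribosomal protein genes Rpl13a and Rpl21 stood at -0.69 ± 0.09 and -0.48 ± 0.09 on the log2 scale, and Tmsb4x, whose protein binds actin monomers, at -0.45 ± 0.08. Gm42418, a transcript model that collects ribosomal RNA reads, stood at -0.35 ± 0.06.

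How many genes passed depended on which mice and comparators entered. The count was 99 without mouse 29 and 48 without mouse 31, dropping the Cd4 requirement for the comparators gave 76 (23 of the 26 among them), and the test without mouse as a block gave 0 (111 at unadjusted p under 0.05). Adding mouse 33, by allowing sums of at least 10 cells, gave 64 of 3078 genes (2.08%), 30 higher and 34 lower, with 21 of the 26 among them.

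Among regulatory T cell core genes (22 listed, 17 tested), 1 was higher and 0 were lower. The median log2 fold change was 0.73 against 0.00 over all genes tested, and 16 of the 17 were above 0. Besides Itgae, the TNF receptor family genes stood near the threshold. Tnfrsf18 (GITR) was at 170.4, 812, 430.1 and 645 CPM in mice 29, 31, 33 and 34 against 159.8, 274, 130.4 and 223 CPM, and its log2 fold change was 1.12 ± 0.28 with adjusted p = 0.0985 (edgeR). Tnfrsf4 (OX40) was at 185, 694, 559 and 634 CPM against 128, 255, 181 and 308 CPM (0.99 ± 0.24, adjusted p = 0.091). Tnfrsf9 (4-1BB) was at 355, 856, 918 and 299.5 CPM against 167, 489.5, 220.0 and 138 CPM (0.93 ± 0.23, adjusted p = 0.091). Each was higher in every mouse, with mouse 29 showing little difference for Tnfrsf18. Ikzf2 missed the threshold as well (0.86 ± 0.19, adjusted p = 0.0596), as did Cd83 (1.12 ± 0.27), Nrp1 (1.01 ± 0.28) and Capg (0.95 ± 0.30). With mouse 33 added, Tnfrsf9 (1.22 ± 0.23), Tnfrsf4 (1.13 ± 0.22), Tnfrsf18 (1.24 ± 0.25) and Cd83 (1.56 ± 0.34) passed. Ctla4 was at -0.27 ± 0.27 (adjusted p = 0.81), and its sign turned to 0.22 with mouse 33. Il2ra had too few UMIs to be tested.

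None of the suppressive mediators passed the test. Of 12 listed, 8 were tested, 0 were called by edgeR (2 at unadjusted p under 0.05) or by DESeq2, and the median was -0.31. Il10, the inhibitory cytokine, was at 128, 73.8, 803 and 34.6 CPM in mice 29, 31, 33 and 34 against 136, 384, 175 and 148 CPM. The Foxp3+ cells were lower in 3 of 4 mice and far higher in mouse 33, and the log2 fold change of the 3 tested mice was -1.48 ± 0.44 (adjusted p = 0.162). Tgfb1 was at 128, 133, 186 and 92.2 CPM against 116, 184, 130.4 and 132 CPM, without a steady direction. The inhibitory receptor gene Lag3 had -1.15 ± 0.47, and Nt5e, which encodes the adenosine-producing enzyme CD73, had 0.56 ± 0.31.

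Effector and tissue regulatory T cell genes (17 listed, 11 tested) had a median of 0.60, with Itgae higher and Cxcr6 lower. Amphiregulin (Areg), a growth factor for tissue repair, was at 483, 1093, 2810.2 and 588 CPM against 252, 752, 155 and 112 CPM. All 4 mice had more in the Foxp3+ cells, by a log2 fold change of 1.17 ± 0.30 that missed the threshold (adjusted p = 0.103, edgeR). Ccr8, a chemokine receptor of skin- and tumor-homing regulatory T cells, was at 156, 428, 287 and 242 CPM against 148, 153, 8.60 and 209 CPM (0.55 ± 0.31). Gata3 had 0.74 ± 0.28, and the ST2 gene Il1rl1, whose protein senses IL-33, was detected in 12.1%, 53.8% and 7.69% of the cells of mice 29, 33 and 34 and in none of the 36 of mouse 31.

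Other lists held few genes that passed. The NF-κB and TNF receptor list (14 tested) had a median of 0.49 with Nfkbia higher, and the immediate early list (15 tested) 0.31 with Fos higher. DESeq2 called 0 genes in both lists, and without the Cd4 requirement the log2 fold changes were 0.35 for Nfkbia and 0.085 for Fos, neither past the threshold. The chemokine receptor and homing list (11 tested) had a median of 0.43 with Itgae higher and Cxcr6 lower. With mouse 33 added that median was 0.00089, and Cxcr6, at -1.17 ± 0.61 (adjusted p = 0.433, edgeR), no longer passed. The T helper list (6 tested) had a median of -0.09 with Ifng lower. edgeR and DESeq2 called 0 genes in the IL-2 and STAT5 list (9 tested, median 0.37), the transcription cofactors (16 tested, 0.11), the costimulation list (8 tested, 0.13), the inhibitory receptors (8 tested, 0.07), the follicular list (10 tested, 0.09), the resting and central list (9 tested, -0.22) and the proliferation list (2 tested, -1.01). Of these, 1, 3, 3, 1, 2, 0 and 1 were at unadjusted p under 0.05 in edgeR, as were 355 of all 3216 genes. With mouse 33 added, Sh2d1a of the follicular list passed as lower (-1.08 ± 0.24) and Zfp36l1 of the cofactors as higher (1.03 ± 0.21). Tnfrsf9 and Tnfrsf4, named above, are also on the costimulation list. Il7r, whose protein CD127 is usually low on regulatory T cells, was at 667, 709, 846 and 668 CPM against 709.5, 396, 436 and 633 CPM. Its log2 fold change was 0.20 ± 0.22, and mouse 33 had the widest gap.

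**Figure D4:**
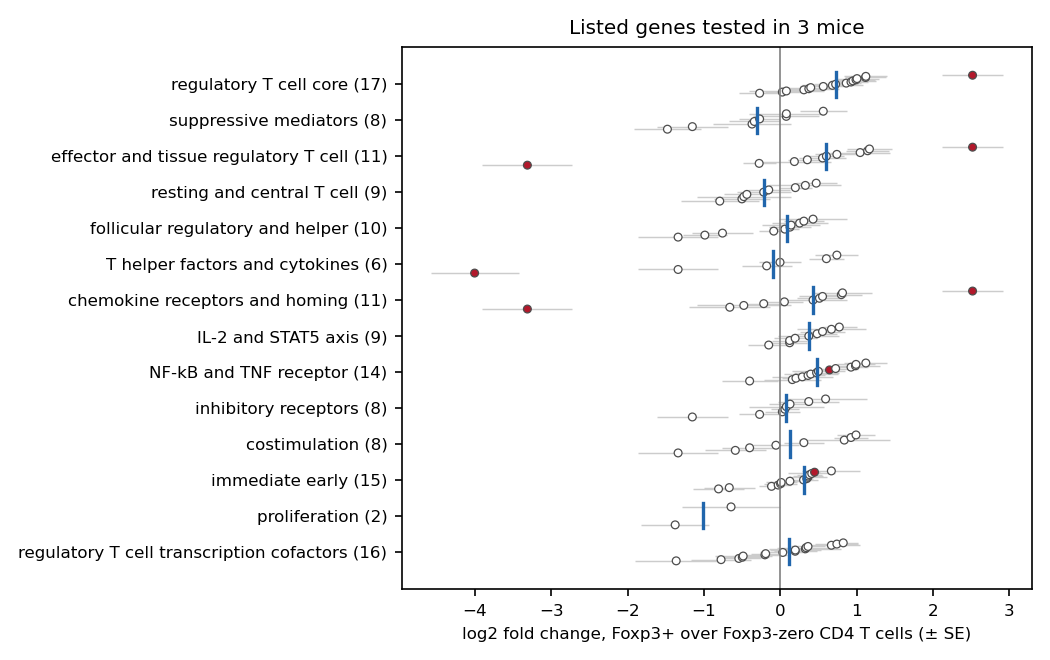
Log2 fold change of Foxp3+ over Foxp3-zero CD4 T cells (x axis) for each tested gene of 14 lists (y axis, number tested in parentheses), with SE as grey bars, genes past an adjusted p of 0.05 filled red and the list median as a blue bar. The core list has a median of 0.73 with Itgae at 2.52, and Cxcr6 and Ifng are the 2 lower genes that passed.

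The Foxp3+ T cells were not uniform. Of the 108 cells, 48 (44.4%) held a UMI of Il1rl1, Klrg1 or Areg, 43 (39.8%) held Gata3 and 39 (36.1%) held Ccr8. Within mice 29, 31, 33 and 34, Il1rl1, Klrg1 or Areg was found in 27.3%, 44.4%, 84.6% and 46.2% of the Foxp3+ T cells and in 24.6%, 36.8%, 18.5% and 17.3% of the comparators. Gata3 was found in 39.4%, 38.9%, 38.5% and 42.3% against 28.7%, 26.5%, 16.3% and 21.1%, and both were more frequent in the Foxp3+ cells of each mouse. Ccr8 was found in 21.2%, 44.4%, 38.5% and 42.3% against 25.7%, 20.5%, 2.85% and 21.1%, lower in mouse 29 and higher in the others. The follicular genes Cxcr5 or Bcl6 were found in 28 of the 108 cells, in 24.2%, 30.6%, 7.69% and 30.8% by mouse against 22.9%, 34.2%, 20.8% and 24.1%, and so without a steady direction. Tbx21 or Cxcr3, genes of type 1 T cells, were found in 8 cells, in 3.03%, 0%, 15.4% and 19.2% by mouse against 7.46%, 4.27%, 23.0% and 9.77%, lower in 3 mice and higher in mouse 34. Within the 108 cells, Ikzf2 and Ctla4 were detected together in 47, Ikzf2 alone in 36 and Ctla4 alone in 7. The 17 cells with Il2ra included 15 with Ikzf2 and 14 with Tnfrsf18. These shares rise with the depth of a cell and were not tested.

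Between nodules, Il1rl1, Klrg1 or Areg was detected most often in mouse 33, in 11 of 13 cells, whereas Gata3 and Ccr8 were not. The Foxp3+ cells of mouse 33 were also the deepest (median 3837 UMIs, against 1404, 1924.5 and 2327.5). Mouse 31, the spleen nodule, had the fewest CD25 and ST2 transcripts and the most of the corepressor Nrip1. Its Tcf7, a factor of resting and stem-like T cells, stood at 325 CPM, against 56.8, 0 and 184 CPM in mice 29, 33 and 34. A single cell held 20.7%, 5.66%, 28.1% and 19.3% of the summed UMIs in mice 29, 31, 33 and 34, so the sums of 3 mice rest partly on 1 cell.

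Receptor use was read from the RNA of the Trbv segments, since BCR libraries hold no T cell receptors. None of the 108 cells had a BCR call. A Trbv UMI was found in 14, 21, 7 and 22 Foxp3+ cells of mice 29, 31, 33 and 34, over 8, 6, 2 and 12 segments. The leading segment was Trbv16 in mouse 29 (6 of 14 cells), Trbv19 in mouse 31 (8 of 21), Trbv3 in mouse 33 (6 of 7, exact interval 42.1% to 99.6%) and Trbv20 in mouse 34 (5 of 22). In the Foxp3-zero CD4 T cells of mouse 33 Trbv3 was also the leading segment but with 15.6% of 559 cells, and in those of mouse 31 Trbv19 had 22.8% of 79. The leading segments of the 2 populations differed in mice 29 and 34.

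Foxp3+ T cells of the B cell nodules were next compared with cells of the same rule in the T cell nodules of mice 30 and 32. In mouse 32 a single cell of 245393 UMIs held 42.2% of the summed UMIs, and that cell belonged to the dominant T cell clone. edgeR called 0 of 1655 genes (0.0%), with 56 at unadjusted p under 0.05 and a lowest adjusted p of 0.581, and DESeq2 called 4. CPM did not overlap between the 3 and the 2 mice for 15.2% of the genes tested. The 4 genes were Bmyc, Fosb and Egr1, higher in the B cell nodules, and Gm26917, lower. Bmyc stood at 284, 974 and 1106 CPM in mice 29, 31 and 34 and at 90.2 and 12.0 CPM in mice 30 and 32 (DESeq2 log2 fold change 4.14 ± 0.84), but mouse 33, outside the test, had 57.4 CPM. Egr1 stood at 1008, 1004.0 and 265 CPM against 12.9 and 80.8 CPM, and Fosb at 880.2, 1889.8 and 576 CPM against 90.2 and 115 CPM, with mouse 33 above both T cell nodules for each (329.8 and 703 CPM). Both encode immediate early transcription factors, which follow T cell receptor signals. The labels name 2 tissue dissociation kits without tying either to a nodule, so kit and nodule type cannot be told apart. The 15 immediate early genes tested had a median of 1.09, against -0.02 over all genes, and edgeR called 0 of them (3 at unadjusted p under 0.05) and DESeq2 2. Foxp3-zero CD4 T cells had 17945, 25517, 8944 and 10534 CPM of the 17 listed genes (mice 29, 31, 33, 34). Those of the T cell nodules, mostly clone cells, had 7840 (mouse 30) and 7420 CPM (mouse 32). Mouse 27 had less, at 4153 CPM. Their Bmyc stood at 120, 266 and 237 CPM (mice 29, 31, 34) against 69.6 and 22.2 CPM (mice 30, 32). Mouse 33 had 16.9 CPM. How far the differences above are particular to Foxp3+ T cells was not tested. The count over all genes was 31 without mouse 30 and 1 without mouse 32, where the T cell nodule left is assumed to vary like the B cell nodules.

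In the T cell nodules the TCR library showed whether cells of the rule belonged to the expanded clone. In mouse 30, 14 of the 34 cells had a TCR call and 9 of them (64.3%) carried the dominant clone, against 86.1% of 2305 called T cells without Foxp3. In mouse 32, 32 of 89 had a call and 7 (21.9%, exact interval 9.28 to 40.0) carried the dominant clone, against 94.0% of 4763. Outside the clone, 8 of the Foxp3+ cells of mouse 32 shared 1 β chain. Its junction is shown beside that of the dominant β chain, 5′ to 3′, as the V(D)J library lists them, with capitals for the bases between the 11 first and 6 last bases that both share:
Dominant β chain (TRBV26, TRBJ2-5): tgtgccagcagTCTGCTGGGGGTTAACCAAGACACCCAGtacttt
β chain shared by Foxp3+ cells (TRBV5, TRBJ2-2): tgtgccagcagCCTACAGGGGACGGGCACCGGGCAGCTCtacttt
Both junctions were 45 bases long. Of 23 T cells with the TRBV5 chain, 8 held a Foxp3 UMI (34.8%, 16.4 to 57.3) and 95.7% held an Ikzf2 UMI, at a median of 1880 UMIs. Of 4390 T cells with the dominant chain, 7 held a Foxp3 UMI (0.159%, 0.0641 to 0.328) and 50.5% held Ikzf2, at a median of 3976 UMIs. The TRBV5 chain was picked because Foxp3+ cells shared it, so its Foxp3 share is a description and was not tested.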

How the data were processed

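Single-cell RNA libraries of 7 nodules were used, with the V(D)J calls of the same nodules. The authors deposited UMI counts per gene and cell for 32285 genes, with no normalization and with called cells only (at least 500 UMIs each). The build GRCm38 (mm10) comes from the submitters' processing notes. The aligner, the annotation and the rule for calling cells are not given in the sources used here, and whether the counts come from the 5′ or the 3′ end was not settled. The V(D)J files hold contig calls by the authors with UMI counts. Samples were grouped as B or T cell nodules by the receptor named in the label of the V(D)J library of the same mouse. Library totals ran from 19264039 to 123456962 UMIs. Each mouse gave 1 nodule. Foxp3+ and Foxp3-zero CD4 T cells were compared with mouse as a block. The p-values of that comparison thus measure how far the difference within a mouse varied from mouse to mouse. Those between B and T cell nodules measure the spread between mice.

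The members of the Foxp3+ group and the gene lists were chosen with earlier results of these data known. No doublets were removed by a caller, and cells with B cell or Cd8 UMIs were left out by the rule. UMIs were summed per mouse and population (at least 20 cells), filtered by filterByExpr and tested in edgeR 4.0.16 (R 4.3.3, TMM, glmQLFit, glmQLFTest) with Benjamini-Hochberg adjustment over all genes tested. The same mouse gave both populations, so mouse was a block. Alternatives were DESeq2 1.42.0, RLE factors, no filter, no block, deeper cells, no Cd4 requirement for the comparators and each mouse left out. A minimum of 10 cells per sum was added after the data were seen. Named genes were the given markers with Eif3e, listed genes, and the 12 highest and 12 lowest changes among genes past the threshold with the same direction in every mouse and at least 20 UMIs. Other genes past the threshold were named after their values were seen. On simulated counts the first comparison recovered 64.4% of 4-fold and 2.44% of 2-fold changes (3090 genes), and the second 87.1% and 17.7% (1617 genes). The simulation gave all genes the same dispersion and no difference between mice beyond depth, so recovery in the real counts may differ. Intervals and floors (3 counts) cover counting error only. Of the listed genes, 286 were found in the files and 2 were not. Some of the genes measured are not reported here.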

Additional observations from a re-analysis of the deposited data

Results flagged for a closer look

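Over 50 values examined in the 4 B cell nodules with Foxp3+ T cells, 7 had 1 mouse far from the other 3 (Dixon's test at the 95% level, which chance passes in about 1 of 20 groups). In 6 of the 7 the mouse was mouse 33, whose 13 cells were not in the tests. Its Foxp3+ T cells had Gzmk at 301 CPM (0 in the other mice), Il10 at 803 CPM (34.6 to 128) and Tnfrsf1b at 172 CPM (99.4 to 104). They also had the histone genes Hist1h1b at 1262 CPM (0 to 69.1, all UMIs of mouse 33 in 1 cell), Hist1h2ae at 2394 CPM (46.1 to 73.8) and Hist1h2ap at 602 CPM (59.1 to 85.2). The remaining value was Nt5e in mouse 31, at 207 CPM (149.8 to 158). Gzmk and these histone genes were named because they passed the threshold in the test, which left out mouse 33. They were thus chosen for a shared direction in the tested mice, so the chance rate of 1 of 20 does not apply to them. The part of cell number, depth or site in the flagged values was not tested.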

How the results depend on the processing

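Against the 26 genes that separated Foxp3+ from Foxp3-zero CD4 T cells, DESeq2 called 13, the test with no filter on low counts 192, the comparators without a Cd4 requirement 76, sums of at least 10 cells 64, and the test with no replicate block 0 (111 at unadjusted p under 0.05). The mice are the pairing, since both populations come from the same animal. RLE factors gave 30 and cells with at least 1000 UMIs gave 32. Leaving out 1 mouse gave 23 to 99. Between B and T cell nodules edgeR called 0 and DESeq2 4, the test with no filter 87, and leaving out 1 mouse 0 to 31. RLE factors, deeper cells and removal of the dominant clone each gave 0 (58, 51 and 57 genes at unadjusted p under 0.05). Of the log2 fold changes of single named genes under the alternatives, 218 kept direction and side of the threshold, 50 lost the threshold, 4 gained it and 3 changed sign. All 3 were Ctla4 (0.090 without the Cd4 requirement, 0.22 with sums of at least 10 cells and -0.58 to 0.051 with 1 mouse left out, the highest without mouse 31). The cause of these changes was not tested, except that fewer or more genes and mice enter by construction. The share of Foxp3+ cells among T cells, 3.75% as the mean of 4 mice, was 0.701% with at least 2 Foxp3 UMIs, 1.74% after thinning and 3.88% with up to 1 B cell UMI allowed. The shares with at least 2 Foxp3 UMIs and after thinning were lower in each of the 4 mice. The SD of 3.06 is the spread between mice, so it does not measure how far these settings agree.

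Under 2 mice had 20 cells per sum with at least 2 Foxp3 UMIs, without cells holding other lineages' genes, with Cd4 required in both populations or with comparators matched for depth, so these settings gave no value. A planned test between resting and other Foxp3+ cells was not run, since 1 or 2 cells per mouse fell in the resting set. With 13 to 36 cells per nodule and 67732 to 86799 UMIs per sum, power was low, and most 2-fold differences were missed on the simulated counts.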
